A study of Mus musculus with 4 samples.

Results

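Open chromatin on mouse chromosomes 15 and 19 was followed in wild-type and Ranbp2-knockout 10T1/2 cells, a mouse embryonic fibroblast line. Peaks of the 4 deposited ATAC-seq peak lists were merged wherever they overlapped by at least 1 bp, which gave 39137 regions. A region on chromosome 15 or 19 was a member when at least 2 of the 4 lists had a peak in it. That left 1929 members, 1156 on chromosome 15 and 773 on chromosome 19, of 23116 such regions in the whole genome. These chromosomes were chosen by the ranks of their peaks, which were lower in the knockout lists than in the wild-type lists, so their ranks, heights and presence by genotype are given as a description, with no test.

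The 2 groups were wild-type cells (2 libraries) and cells with Ranbp2 knocked out by CRISPR-Cas9 (2 libraries), grown in the same serum-containing medium. The knockout cells were 1 clone, raised from a single sorted cell, by the design text of the series. Loss of Ranbp2 and any other property of that clone cannot be told apart in these libraries, nor can the number of copies of a chromosome per cell and the openness of each copy. No label ties a replicate to a separate culture, so the spread between replicates may be technical.

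In ATAC-seq a transposase cuts DNA that nucleosomes leave open and tags it for sequencing, so active promoters and enhancers give peaks over a lower local background. Ranbp2 is a large protein of the cytoplasmic face of the nuclear pore, where it binds Ran and holds Rangap1, the protein that switches Ran off after nuclear export. Rangap1 lies on chromosome 15. Chromosome 15 also carries the HoxC cluster, the keratin type II cluster and many tubulin, transcription factor and translation genes, and chromosome 19 is a small, gene-rich chromosome with many metabolic and RNA-binding protein genes.

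The promoters below show what kind of DNA the results turn on. Each runs from 250 bases before to 50 bases after a gene start, 5′ to 3′ along the gene, from RefSeq on GRCm38.p6. Capitals mark every match, on either strand, to the GC box GGGCGG, the CCAAT box, the AP-1 site TGANTCA, the E-box CACGTG, the ETS core CCGGAAG, the TATA box TATAAA and the CArG box. Tarbp2 and Osbp lie in the strongest gene-end member of the authors' wild-type-enriched list on chromosome 15 and on chromosome 19, and 4930554I06Rik lies in the strongest member of that list on chromosome 19 away from protein-coding gene ends. The other genes were chosen after their values were seen: Srebf2, Syvn1 and Smarca2 had lower peaks in the knockout, Rangap1 is the partner of Ranbp2, and Acta2 was the one with a higher peak.
Tarbp2, chr15:102517942-102518241, plus strand: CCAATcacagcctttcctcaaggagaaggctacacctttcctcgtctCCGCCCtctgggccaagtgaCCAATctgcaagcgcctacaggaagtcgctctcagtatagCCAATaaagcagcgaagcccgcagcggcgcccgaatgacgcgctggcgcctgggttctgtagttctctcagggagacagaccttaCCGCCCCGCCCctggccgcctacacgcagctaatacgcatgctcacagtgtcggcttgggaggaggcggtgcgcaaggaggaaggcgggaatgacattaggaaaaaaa
Srebf2, chr15:82147019-82147318, plus strand: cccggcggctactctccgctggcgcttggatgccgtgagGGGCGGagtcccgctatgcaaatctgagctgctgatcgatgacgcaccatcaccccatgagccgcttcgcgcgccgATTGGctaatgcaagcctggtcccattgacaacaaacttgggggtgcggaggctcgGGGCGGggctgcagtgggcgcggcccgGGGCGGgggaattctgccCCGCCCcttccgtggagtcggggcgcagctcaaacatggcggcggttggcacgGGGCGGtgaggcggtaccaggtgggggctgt
Rangap1, chr15:81729870-81730169, minus strand: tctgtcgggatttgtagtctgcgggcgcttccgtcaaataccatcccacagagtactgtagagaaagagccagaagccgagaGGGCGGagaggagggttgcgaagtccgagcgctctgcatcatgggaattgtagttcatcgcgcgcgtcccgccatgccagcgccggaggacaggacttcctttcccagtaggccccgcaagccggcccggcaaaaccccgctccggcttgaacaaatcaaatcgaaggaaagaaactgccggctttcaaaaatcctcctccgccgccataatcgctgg
Osbp, chr19:11965594-11965893, plus strand: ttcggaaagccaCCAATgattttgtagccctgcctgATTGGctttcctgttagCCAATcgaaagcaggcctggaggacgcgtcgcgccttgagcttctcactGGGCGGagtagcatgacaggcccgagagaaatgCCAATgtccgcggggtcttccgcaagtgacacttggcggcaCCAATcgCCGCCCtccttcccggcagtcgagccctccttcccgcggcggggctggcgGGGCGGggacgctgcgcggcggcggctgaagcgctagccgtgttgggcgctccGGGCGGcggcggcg
4930554I06Rik, chr19:21104460-21104759, plus strand: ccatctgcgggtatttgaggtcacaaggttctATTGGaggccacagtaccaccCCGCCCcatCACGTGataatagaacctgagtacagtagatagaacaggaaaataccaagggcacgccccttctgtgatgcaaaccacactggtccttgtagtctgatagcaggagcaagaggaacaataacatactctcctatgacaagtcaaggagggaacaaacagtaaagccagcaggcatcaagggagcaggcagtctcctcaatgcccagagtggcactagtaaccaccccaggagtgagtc
Syvn1, chr19:6046326-6046625, plus strand: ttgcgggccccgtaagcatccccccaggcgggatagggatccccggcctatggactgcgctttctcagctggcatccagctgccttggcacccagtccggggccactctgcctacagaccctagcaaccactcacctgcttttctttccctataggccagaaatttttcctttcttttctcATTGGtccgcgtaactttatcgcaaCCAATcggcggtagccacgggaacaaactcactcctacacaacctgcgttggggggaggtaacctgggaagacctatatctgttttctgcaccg
Smarca2, chr19:26604910-26605209, plus strand: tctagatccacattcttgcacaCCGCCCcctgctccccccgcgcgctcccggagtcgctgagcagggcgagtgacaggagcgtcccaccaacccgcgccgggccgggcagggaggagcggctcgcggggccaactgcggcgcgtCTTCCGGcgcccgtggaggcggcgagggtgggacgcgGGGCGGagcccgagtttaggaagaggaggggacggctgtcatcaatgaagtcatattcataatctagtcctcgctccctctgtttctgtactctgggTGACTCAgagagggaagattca
Acta2, chr19:34255324-34255623, minus strand: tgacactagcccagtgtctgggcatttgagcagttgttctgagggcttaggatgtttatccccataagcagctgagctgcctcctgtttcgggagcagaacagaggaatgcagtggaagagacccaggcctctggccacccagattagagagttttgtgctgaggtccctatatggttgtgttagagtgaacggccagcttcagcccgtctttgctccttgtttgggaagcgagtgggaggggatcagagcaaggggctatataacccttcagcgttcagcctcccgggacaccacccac
The Osbp promoter was the richest in CpG, with 34 in 300 bases, and the 4930554I06Rik and Acta2 promoters the poorest, with 4 and 6. Acta2 held no exact match to the motifs searched. Near matches were not counted, so this does not show that the promoter lacks CArG or TATA elements. Rangap1 held 1 GC box, and Srebf2 held 5.

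The lists differed in length, at 33721 and 18511 peaks for wild type and 13877 and 24292 for knockout (replicates 1 and 2, in that order here and below). Read depth is not in the files. The fold enrichment and p-value of each peak could be solved for the pile-up of reads at the summit (its height) and for the caller's local background, and the height came out whole to within 0.02 for 99.99% of the peaks of each list. Over the 9739 regions of the other 17 autosomes that had a peak in all 4 lists, the median height was 70.0 and 31.0 in wild type and 26.0 and 48.0 in knockout. A relative height or relative background below is a value divided by the median of those 9739 regions in the same library. This takes out a common scale, such as overall depth. It does not take out effects of depth that differ between weak and strong peaks, and these were not tested. Gene-end peaks were found at 10 of 12 fibroblast marker genes, which all lie on other chromosomes (10, 7, 4 and 6 by library; 4 genes had one in all lists, of which 1 was lower and 1 higher in height, with a median log2 difference of 0.1465) and at 0 of 6 epithelial and 0 of 5 endothelial ones. Of 5 immune markers 2 had one in any list (1, 0, 0 and 1 by library), as did 1 of 5 pluripotent and neural markers (1, 0, 0 and 0). An open promoter is not expression.

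The wild-type lists held 1909 and 1564 of the 1929 members and the knockout lists 1052 and 1639. On chromosome 15, 98.7% and 81.0% of the members were present in wild type and 54.6% and 84.3% in knockout. The other autosomes had 97.7% and 77.3% against 57.4% and 86.9%. Set against the other autosomes in the same library, chromosome 15 was thus over-represented in both wild-type lists, by 0.96 and 3.63 percentage points, and under-represented in both knockout lists, by -2.81 and -2.64, a difference of -5.02 (knockout minus wild type; pairs of libraries from -6.45 to -3.60). Chromosome 19 gave 1.61 and 3.91 in wild type and -2.93 and -0.86 in knockout, a difference of -4.66 (pairs from -6.84 to -2.47). The groups did not overlap on either chromosome. A lack of overlap was usual, however, and the groups overlapped only on chromosomes 5, 14, 16 and 18. The other autosomes differed in both directions, such as chromosome 9 (pairs from -12.47 to -6.32) and chromosome 17 (pairs from 4.69 to 8.90). Replicates of a genotype differed by up to 5.92 points on an autosome. The size also moved when 1 library was left out. With regions rebuilt without wild-type replicate 2 the difference was -1.03 on chromosome 15 and -2.93 on chromosome 19. It was -3.08 on chromosome 15 without wild-type replicate 1, and -2.62 on chromosome 19 without knockout replicate 1. Leaving out a library also changes the members. With 1 library of a genotype left, a region found in that genotype alone can no longer reach 2 lists. How much of the size a single library carried therefore cannot be read from these values.

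The share of all autosomal peaks that lay on chromosome 15 was 5.340% and 5.380% in wild type and 4.952% and 4.899% in knockout. For chromosome 19 it was 3.591% and 3.603% against 3.239% and 3.235%. The replicates of a genotype differed by at most 0.053 percentage points on these 2 chromosomes, against differences of -0.435 and -0.360 between genotypes. On the other autosomes replicates differed by up to 0.599 (chromosome 11), more than these differences. Several other autosomes had larger differences between genotypes, in both directions, such as -0.928 on chromosome 9 and 0.926 on chromosome 17.

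Members at the edge of the rule were weak peaks. Another 812 regions of chromosome 15 and 517 of chromosome 19 had a peak in 1 list and were left out; 601 and 405 of them came from wild-type replicate 1, the longest list. Their median percentile within their list was 18.2 and 20.8, against 35.2 and 31.9 for members in exactly 2 lists and 76.4 and 79.1 for members in all 4. The 4-list members, 545 on chromosome 15 and 363 on chromosome 19, carry the comparisons of level below, and these 908 are the stronger members, not all of them.

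Peaks of both chromosomes were lower and sat on a lower background in the knockout. On chromosome 15 the mean log2 relative height was 0.247 and 0.270 in wild type and 0.037 and 0.092 in knockout, a difference of -0.194 (pairs from -0.233 to -0.156), or -12.6%. Chromosome 19 had 0.307 and 0.324 against 0.113 and 0.119, a difference of -0.199 (pairs from -0.211 to -0.188), or -12.9%. Replicates of a genotype differed by at most 0.055 on chromosome 15 and 0.016 on chromosome 19, and by at most 0.077 on any of the 19 autosomes.

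The local background moved by as much as the peaks. Its mean log2 relative value on chromosome 15 was 0.331 and 0.352 in wild type and 0.132 and 0.164 in knockout, a difference of -0.193. On chromosome 19 it was 0.361 and 0.372 against 0.128 and 0.164, a difference of -0.221. The stretch over which the caller took the background is not stated in the sources used. The background also rose with peak strength. On the other autosomes its median relative value in wild-type replicate 1 was 0.797 in the weakest of 5 bins by mean rank and 1.39 in the strongest. It may thus include reads of the peaks and is not a measure independent of height.

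The fold of peak over background, into which both values enter, separated the genotypes less than either. In rank by -log10 q among the shared regions, chromosome 15 stood 6.32 and 6.95 percentile points above the other autosomes in wild type and 0.06 and 2.07 in knockout, a difference of -5.57. Chromosome 19 stood 9.0 and 9.06 above them in wild type and 4.49 and 3.55 in knockout, a difference of -5.01. Ranked by fold enrichment instead, the difference was -2.20 on chromosome 15 (pairs from -4.39 to -0.02) and -1.09 on chromosome 19 (pairs from -3.89 to 1.71), within the replicate gaps of 3.53 and 3.34. At the same fold a greater height gives a smaller q, so the rank by q moves with height.

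Other autosomes differed as much, in both directions. By height, chromosome 19 was the third lowest and chromosome 15 the fourth lowest of 19, after chromosomes 13 and 10, with chromosome 9 next, and chromosome 17 was the highest, at 0.224. The background of chromosome 17 differed by 0.303. No test set chromosomes 15 and 19 apart from 9, 10 and 13, and the reference of 17 autosomes includes those.

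**Figure D1:**
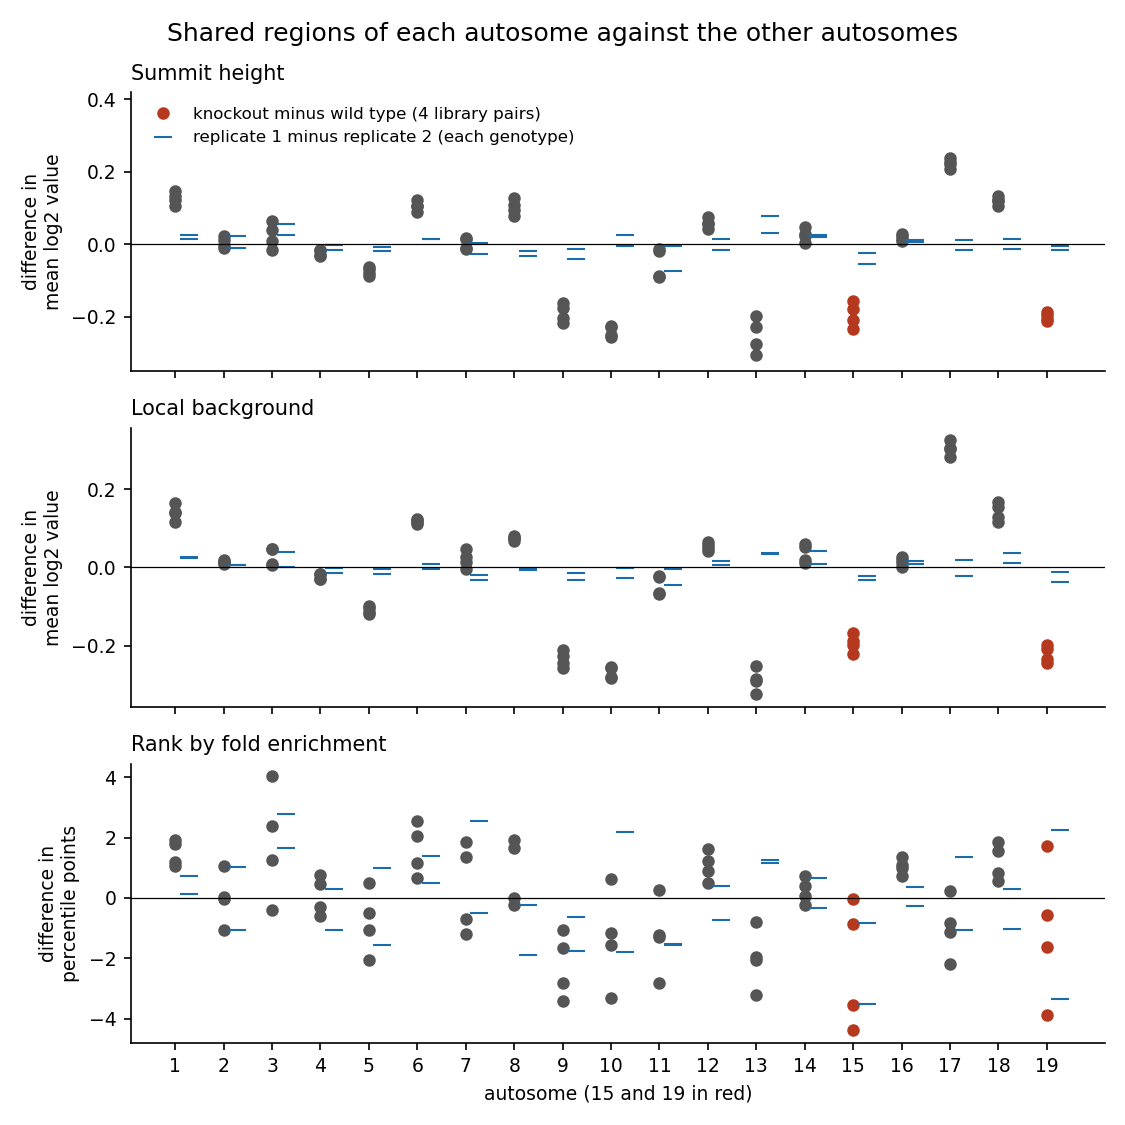
Mean over the shared regions of each autosome, knockout minus wild type, for summit height (log2), local background (log2) and rank by fold enrichment (percentile points), each against the other autosomes; dots are the 4 pairs of libraries, blue dashes the differences between replicates. Chromosomes 15 and 19 (red) lie between -0.233 and -0.156 in height, beyond the replicate dashes, while their ranks by fold spread from -4.39 to 1.71.

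The lower level ran along both chromosomes rather than sitting in one stretch. Each chromosome was divided into 5 Mb windows, and windows with at least 10 shared regions were used. In relative background, both knockout libraries lay below both wild-type libraries in 17 of 17 windows of chromosome 15 and in 12 of 13 of chromosome 19, against 32.6% of the 344 windows of the other autosomes. Chromosomes 9, 10 and 13 each had 94.4% of their windows lower in the same way, so the pattern was not particular to chromosomes 15 and 19. The window differences in log2 background ran from -0.2913 to -0.0907 on chromosome 15 (median -0.1899) and from -0.3544 to -0.0082 on chromosome 19 (median -0.2365). Heights separated in fewer windows, 11 of 17 and 7 of 13, against 24.7%, and ranks in 12 of 17 and 7 of 13, against 27.3%. The rank counts depend on the ranking: they were 3 of 17 and 1 of 13 with percentiles among all peaks of a list, and 6 of 17 on chromosome 15 by fold enrichment. Windows with both knockout libraries above both wild-type libraries numbered 0 and 0 by background (40.1% on the other autosomes), 0 and 1 by height (39.8%) and 0 and 1 by rank (32.0%).

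At 25 to 30 Mb of chromosome 15, which holds Ank and Myo10, 17 shared regions had mean log2 heights of 0.2581 and 0.3967 in wild type and -0.0518 and -0.1307 in knockout. At 25 to 30 Mb of chromosome 19, with Smarca2 and Jak2, 12 shared regions had 0.3506 and 0.3836 against 0.0088 and -0.1352. The groups did not overlap in either window. At 50 to 55 Mb of chromosome 19, with Shoc2 and Smndc1, the background of 15 regions was 0.6143 and 0.6354 against 0.2452 and 0.2957, the widest background difference of the 30 windows.

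The window at 55 to 60 Mb of chromosome 19 went the other way. Its 15 shared regions, 2 of them at gene ends, had mean log2 heights of -0.0829 and -0.1333 in wild type and 0.0814 and -0.0340 in knockout, higher in both knockout libraries. Its background was 0.1230 and 0.0840 against 0.0948 and 0.0959, with the groups overlapping. It holds the higher regions in Atrnl1 and near Plekhs1 described below. The fullest windows of chromosome 15, at 75 to 85 Mb, and the first windows of chromosome 19, at 0 to 10 Mb, hold 113, 73, 37 and 97 shared regions, and their heights differed by -0.1320, -0.2121, -0.2795 and -0.2795.

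**Figure D2:**
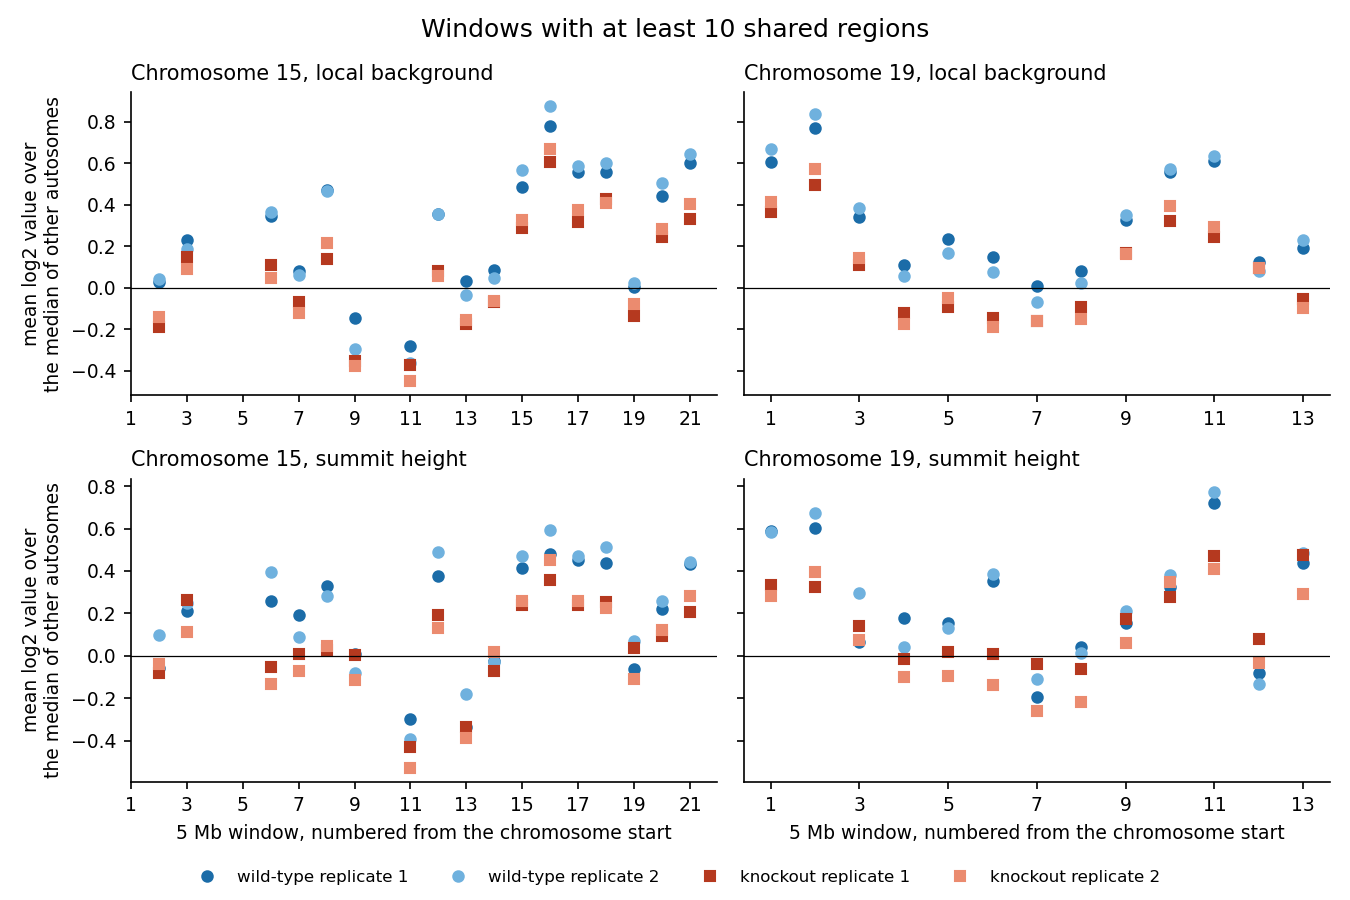
Mean log2 relative background (top) and height (bottom) in 5 Mb windows of chromosomes 15 and 19 that hold at least 10 shared regions, numbered from the chromosome start; circles are wild-type and squares knockout libraries. In the background panels the squares lie below the circles in 17 of 17 and 12 of 13 windows; the exception is window 12 of chromosome 19.

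Strong and weak peaks shared the difference once each was set against peaks of like strength. Shared regions were put in 5 bins of equal size by mean rank. On the other autosomes the median log2 height difference itself ran from 0.1747 in the weakest bin to -0.0771 in the strongest. On chromosome 15 it ran from -0.0013 to -0.2926 and on chromosome 19 from 0.0365 to -0.3330. Within a bin, members lay below the other autosomes by -0.1760, -0.1066, -0.2025, -0.1931 and -0.2154 on chromosome 15, and by -0.1382, -0.1868, -0.1236, -0.2081 and -0.2559 on chromosome 19, weakest bin first. For background the bins lay within -0.2017 to -0.1605 on chromosome 15 and -0.1891 to -0.1504 on chromosome 19.

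Promoters and distal regions shared it as well. A region counted as a gene end when the start or end of a protein-coding gene lay within 1 kb: 355 of 1156 members of chromosome 15 and 316 of 773 of chromosome 19. Among shared gene-end members the median log2 height difference was -0.2243 (224 regions) and -0.2649 (199 regions), against -0.0688 on the other autosomes. Elsewhere it was -0.1607 (321 regions) and -0.1231 (164 regions), against 0.0789. Less the other autosomes, that is -0.1555 and -0.2397 on chromosome 15 and -0.1961 and -0.2021 on chromosome 19, gene ends first. The contrast between gene ends and elsewhere was not used to pick the chromosomes and was tested on rank. It was 3.83 and 4.16 percentile points in wild type and 6.77 and 4.74 in knockout on chromosome 15, a difference of 1.76 (two-sided exact permutation test, p = 0.333, the smallest that 2 libraries against 2 allow). On chromosome 19 it was -2.11 and -1.07 against -1.02 and -2.27, a difference of -0.05 (exact permutation p = 1.00). This design cannot reach 0.05.

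**Figure D3:**
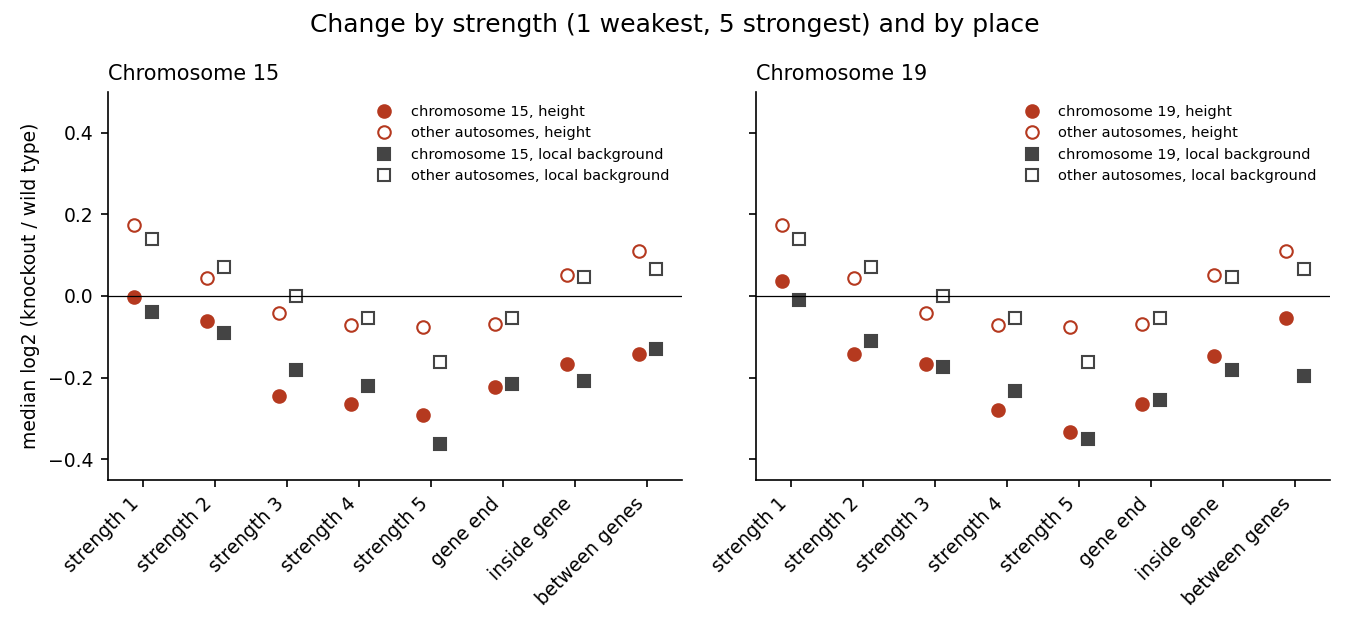
Median log2 ratio of knockout to wild type for shared regions by strength (5 equal bins) and by place, for chromosomes 15 and 19 (filled) and the other 17 autosomes (open); circles are heights and squares local backgrounds. Filled symbols lie below the open ones of their class throughout, by -0.2559 to -0.1066 for height in the strength bins.

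Member by member the shift was broad but small beside the error of one region. By relative height, 252 of 545 shared members of chromosome 15 (46.2%) and 184 of 363 of chromosome 19 (50.7%) were lower in both knockout libraries than in both wild-type libraries, against 25.1% on the other autosomes. Higher in both were 72 and 42, against 25.1%. By rank 216 (39.6%) and 135 (37.2%) were lower, against 23.3%, and 85 and 46 were higher, against 23.4%. The difference between genotypes had a standard deviation of 0.3708 (log2) across shared members of chromosome 15, where replicates alone give 0.2306 for one region. It was 0.3623 against 0.2160 on chromosome 19. The other autosomes had 0.3945 against 0.2387, so this spread was not particular to the members. A mean difference near -0.2 is thus smaller than the replicate error of a single region.

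The member with the widest gap on chromosome 19 was chr19:29234095-29234376, 17427 bp from Jak2, the kinase of many cytokine receptors. Its relative height was 1.49 and 1.61 in wild type and 0.423 and 0.417 in knockout, and its fold over background 21.1 and 20.1 against 5.07 and 6.61. It lies in the authors' wild-type-enriched list. The gene-end region of Jak2 itself had 0.686 and 0.645 in wild type, 0.729 in knockout replicate 2 and no peak in knockout replicate 1. Its other gene-end region had 0.500 and 0.581 in wild type, 0.479 in knockout replicate 2 and again no peak in knockout replicate 1.

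On chromosome 15 the widest gap was at chr15:27405739-27406181, 60496 bp from Ank, which encodes a pyrophosphate transporter. Its relative height was 1.69 and 2.48 in wild type and 0.731 and 0.812 in knockout. The gene end of Med30, a Mediator subunit, had 1.34 and 1.32 against 0.808 and 0.667. That of Poldip3, an RNA-binding export factor, had 1.74 and 2.00 against 1.04 and 1.10. The knockout libraries lay below both wild-type libraries at each of these, which follows from picking them by the widest gap in rank.

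Others of the 8 widest gaps on chromosome 15 were a region near Txn2 (mitochondrial thioredoxin), one inside Baalc, the gene ends of C030006K11Rik and Ly6c1, and 1 region with no gene within 100 kb. Their log2 height differences lay between -0.957 and -0.601.

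On chromosome 19 the gene end of Syvn1, a ubiquitin ligase of the endoplasmic reticulum, had relative heights of 1.44 and 1.48 in wild type and 0.769 and 0.771 in knockout. That of Smarca2, an ATPase of the SWI/SNF chromatin remodeller, had 1.26 and 1.06 against 0.769 and 0.688. That of Uhrf2, a reader of modified cytosines, had 1.01 and 1.32 against 0.769 and 0.542. A region 69174 bp from Tmc1 had 1.49 and 2.06 against 0.731 and 0.729. A region 1231 bp from Cd248, a stromal cell surface protein, had 1.64 and 1.74 against 0.885 and 1.12. Regions inside Cemip2 and Morn4 had differences of -0.746 and -0.655 on the log2 scale.

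The members with the widest gaps upward included a promoter of the contractile programme. At the gene end of Acta2, smooth muscle actin, the relative height was 0.671 and 0.677 in wild type and 1.31 and 0.979 in knockout, and the fold over background 8.60 and 7.41 against 9.30 and 9.35. Its relative background was 1.11 and 1.10 against 1.19 and 1.10. A region inside Parvb, an actin-linked adhesion protein, had relative heights of 0.971 and 1.03 against 1.5 and 2.19. Regions inside Atrnl1 (0.657 and 0.645 against 1.27 and 1.02) and Dagla (0.757 and 0.935 against 1.38 and 1.40) were also higher in both knockout libraries. So were those inside Dip2b and near Csnk1e, Smgc and Dock8, by 0.785, 0.793, 0.828 and 0.635 on the log2 scale. All 8 were picked by the widest upward gap in rank, so their higher values follow from that choice. Of these 8, Acta2 alone was at a gene end.

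Some members had peaks in both libraries of 1 genotype only. Both wild-type lists and no knockout list held 165 members of chromosome 15 (14.3%) and 91 of chromosome 19 (11.8%), against 11.0% on the other autosomes. Both knockout lists and no wild-type list held 11 (0.952%) and 4 (0.517%), against 1.67%. At gene ends the wild-type-only share was 9.86% and 7.59%, against 5.79%, and elsewhere 16.2% and 14.7%, against 13.9%. A missing peak may lie just under the threshold of a shorter list, and knockout replicate 1 is the shortest.

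The strongest wild-type-only members were inside Fam135b, Myo10, Zc3h3, Fyb and Deptor on chromosome 15. That of Fam135b had relative heights of 1.26 and 1.06, at the level of a median region, and that of Deptor, which encodes an inhibitor of mTOR, 0.957 and 0.871. On chromosome 19 they included regions near Frmd8, at the gene end of Pitx3, inside Ltbp3, which encodes a TGF-beta binding protein, and near Kat5. The Ltbp3 region had 0.743 and 0.774. The knockout-only members with the highest ranks were near Gm33049 (1.15 and 1.15) and inside Cacng2 and Slc38a1 on chromosome 15, and inside Pola2 and Kank1 and near Htr7 on chromosome 19.

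The authors' deposited lists of differential regions hold 22 wild-type-enriched regions on chromosome 15 and 20 on chromosome 19, of 190 in all, which overlap 22 and 21 members (1.90% and 2.72%, against 0.723% on the other autosomes). The knockout-enriched list holds 6 and 3 of its 189 regions there, on 6 and 3 members (0.519% and 0.388%, against 0.811%). These lists come from the same libraries, so they are no independent evidence. Of the wild-type-enriched members 12 and 13 were at gene ends, and of the knockout-enriched ones 0 and 0.

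Levels were read at the listed members with a peak in all 4 lists, 21 and 16 wild-type-enriched and only 3 and 2 knockout-enriched. On the wild-type-enriched list the median log2 height difference was -0.5139 and -0.5453, with the background lower by nearly as much (-0.4982 and -0.4684). The fold over background differed by -0.1057 and -0.1757. On the knockout-enriched list the height differed by 0.7636 and 0.6517, the background by 0.1079 and 0.2975 and the fold by 0.5948 and 0.3770. Shared members outside both lists still differed in height by -0.1893 (521 regions) and -0.2100 (345 regions), against -0.0111.

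Several wild-type-enriched members were strong promoters of regulators. The region chr15:102517859-102518501 over the Tarbp2 promoter printed above, which encodes a partner of Dicer, lies 855 bp from an end of Map3k12 and had relative heights of 3.61 and 4.48 against 3.04 and 3.08. Sp1, the factor that binds GC boxes, had 3.93 and 4.58 against 3.0 and 4.0, so that the groups overlapped in height, while its relative background of 4.39 and 4.83 against 2.40 and 3.07 did not. Srebf2, the master factor of cholesterol synthesis, had 2.73 and 2.32 against 2.00 and 2.08. Osbp, a sterol carrier, had 2.77 and 3.52 against 2.27 and 2.40. Myo10, a filopodial myosin, had 2.64 and 2.58 against 1.54 and 1.19, the widest of these gaps.

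Trib1, a pseudokinase, had relative heights of 2.76 and 3.19 in wild type and 2.00 and 2.02 in knockout. The region near Clcf1, a cytokine of the interleukin-6 family, differed by -0.908 on the log2 scale and that at Ptk2, focal adhesion kinase, by -0.491. A pair of regions near Frmd8, a pair near Tmc1 and a pair inside Tef were also listed. The one of the Tmc1 pair that covers the 4930554I06Rik start printed above had 2.26 and 2.03 in wild type, and its log2 height difference was -0.743.

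The knockout-enriched members were distal or intragenic. A region inside Col2a1, the cartilage collagen gene, had relative heights of 0.600 and 0.677 in wild type and 1.31 and 0.896 in knockout. Regions inside Eppk1 and near Plekhs1 differed by 0.794 and 0.668 on the log2 scale. The remaining ones lay near Dock8 and Gsdmd, inside Slc38a1, Cerk and Kank1, and at 1 place more than 100 kb from any protein-coding gene.

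Genes of 6 functional lists, drawn up with earlier results of these libraries known, were read at their gene ends. The lists overlap in part, neighbouring genes can share 1 region (Tut1 with Eef1g, Hsf1 with Bop1, Cbx5 with Hnrnpa1, Brix1 with Rad1), and a promoter shared by all 4 lists had to be fairly strong. Where a gene had several gene-end members, the one with the highest mean percentile was read. Of all shared gene-end members, 55.4% on chromosome 15 and 56.3% on chromosome 19 were lower in height in both knockout libraries and 4.02% on each were higher, against 28.6% and 16.6% on the other autosomes. The counts by list below stand beside those chromosome-wide shares, and none was tested against them.

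Of the RNA processing, translation and microRNA genes, 41 of 47 on these chromosomes had a gene-end member and 34 had one in all 4 lists. Of those 34, 19 were lower in height and 2 higher, with a median log2 difference of -0.3129. Rangap1 led in rank, with relative heights of 3.30 and 3.68 in wild type and 2.46 and 2.88 in knockout, both knockout libraries below both wild-type libraries. Its fold over background was 30.3 and 25.6 against 17.2 and 24.0. The splicing factor Sf1 had heights of 3.24 and 4.03 against 2.81 and 3.06, and Pcbp2, a poly(C)-binding protein, 2.70 and 3.45 against 1.88 and 2.27. Tnrc6b, a partner of Argonaute, had 2.77 and 3.65 against 2.77 and 2.23. Xpnpep1, an aminopeptidase, and Smc3, a cohesin subunit, are also in this list and their groups overlapped.

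Genes of the pore and of export gave values in both directions. Chosen after their values were seen, Nup155, a scaffold nucleoporin, had relative heights of 1.33 and 1.71 in wild type and 1.19 and 1.15 in knockout. Nup50, a nucleoporin of the nuclear basket, had 0.643 and 0.871 against 1.08 and 0.875. Nxf1, the mRNA export receptor, had 0.657 and 0.484 in wild type, 0.417 in knockout replicate 2 and no peak in knockout replicate 1. Nup155 was lower and Nup50 higher in both knockout libraries, the latter by 0.871 against 0.875 in the closest pair.

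Of the transcription factor and chromatin genes, 29 of 52 had a gene-end member and 20 one in all 4 lists, of which 11 were lower and 0 higher (median -0.3285). Hsf1, the heat shock factor, had 2.27 and 2.68 in wild type and 1.88 and 1.79 in knockout. Cbx5, a heterochromatin protein, had 2.09 and 2.16 against 1.92 and 1.94 at the region it shares with Hnrnpa1. Another gene-end region of Cbx5, chr15:103239341-103239619, is in the wild-type-enriched list and had 2.21 and 2.71 against 1.19 and 1.85. Smndc1, a splicing factor kept in this list, had 3.11 and 3.97 against 2.69 and 2.77, and Zfp706 overlapped. Chosen after its values were seen, Atf4, the factor of the integrated stress response, had 2.31 and 2.94 against 1.54 and 1.85. Gene-end regions of Vdr, Pitx3, Hoxc13 and Nr4a1 had peaks in both wild-type libraries only, all under 0.85 in relative height.

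Of the cell cycle and DNA repair genes, 29 of 39 had a gene-end member and 23 one in all 4 lists, of which 14 were lower and 1 higher (median -0.2603). Troap, a spindle-associated protein, had 2.63 and 2.94 against 2.23 and 2.42. Rbx1, the RING subunit of cullin ligases, had 1.83 and 2.13 against 1.38 and 1.52. Tonsl, a replication-fork repair protein, had 1.66 and 1.97 against 1.31 and 1.46, and Fam111a and Cep55 differed by -0.2603 and -0.3384. The higher one was Pold4, a subunit of DNA polymerase delta, with 1.01 and 1.06 against 1.27 and 1.21. Dscc1 and Mtbp had peaks in both wild-type libraries only.

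Of the lipid, sterol and mitochondrial genes, 29 of 45 had a gene-end member and 24 one in all 4 lists, of which 12 were lower and 2 higher (median -0.2747). Pcx, pyruvate carboxylase, had 3.47 and 4.42 in wild type and 2.46 and 3.19 in knockout. The complex I genes Ndufs8 and Ndufv1 had 3.13 and 3.06 against 2.38 and 2.42, and 2.69 and 2.68 against 1.62 and 2.44. Dgat1 and Got1 overlapped between genotypes, and Pmm1 had 2.01 and 2.23 against 1.65 and 2.00. The 2 higher ones were Oxct1, of ketone body use (1.36 and 1.35 against 1.5 and 1.42), and Cox15, of heme A synthesis (0.443 and 0.645 against 0.692 and 0.771). Tspo and Elovl3 had wild-type peaks only.

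Of the matrix, adhesion and cytoskeleton genes, 19 of 42 had a gene-end member and 14 one in all 4 lists, of which 9 were lower and 1 higher (median -0.2384). Tuba1a, an alpha-tubulin, had 3.11 and 3.42 against 2.04 and 2.65, and Myh9, non-muscle myosin IIA, 3.09 and 3.23 against 2.42 and 2.58. Lpxn, a focal adhesion protein, had 2.31 and 2.71 against 2.23 and 1.77. Triobp and Sdc2 overlapped. The fold over background of this list had a median difference of 0.0560, above 0, and the higher gene was Acta2. Angpt1 and Myof had wild-type peaks only.

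Of the signalling genes, 25 of 47 had a gene-end member and 13 one in all 4 lists, of which 4 were lower and 0 higher (median -0.2926). These were Shoc2, a scaffold of the Ras pathway (2.69 and 2.55 against 1.92 and 1.83), Sufu, the inhibitor of Hedgehog signalling (2.63 and 2.48 against 1.62 and 1.96), Bad, a pro-apoptotic Bcl-2 relative (1.99 and 2.23 against 1.88 and 1.56), and Rbm4, an RNA-binding protein kept in this list (2.09 and 2.06 against 1.31 and 1.44). Btrc, a ubiquitin ligase subunit, overlapped, and Chuk, an I-kappa-B kinase, had no peak in knockout replicate 1. Gene-end regions of Osmr, Lifr, Igfbp6, Frat1 and Gnaq had wild-type peaks only. Over all 6 lists no gene had knockout peaks only. Such regions were rare at gene ends in general. They made up 0.282% of gene-end members on chromosome 15 and 0.316% on chromosome 19, against 0.190% on the other autosomes.

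**Figure D4:**
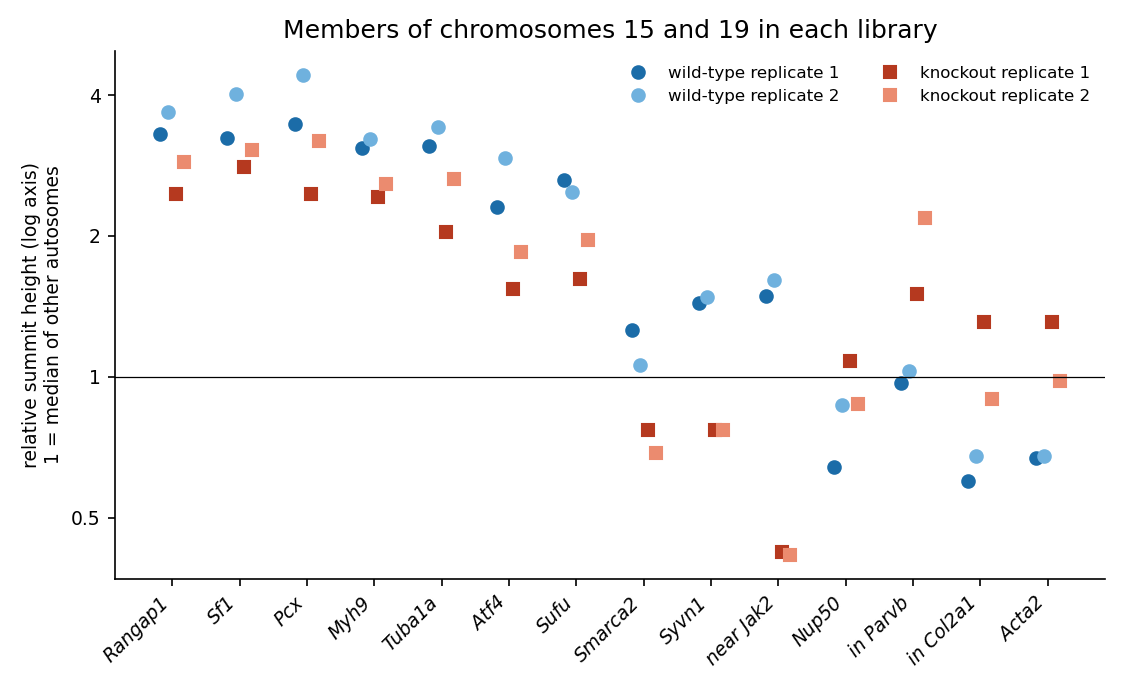
Relative summit height (log axis; 1 is the median of shared regions on the other autosomes) of 14 members in each library; circles are wild-type and squares knockout libraries. From Rangap1 to the region near Jak2 both squares lie below both circles, and at Nup50, inside Parvb and Col2a1 and at Acta2 both lie above. The 14 were picked from the named members with those that overlapped left out, so their separation follows from the choice. Of all shared members, 46.2% on chromosome 15 and 50.7% on chromosome 19 were lower in this way, and 13.2% and 11.6% higher.

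Promoters in shared members were searched for the motifs named above. Of 170 RefSeq promoters that lie in shared members of chromosome 15, 75.3% held a GC box GGGCGG on either strand, and of 210 on chromosome 19, 71.0%, against 72.6% of 5200 promoters in shared regions of the other autosomes and 35.7% of all 32851 promoters in the table. CCAAT was found in 50.0% and 56.7%, against 47.9% and 37.4%. The ETS core CCGGAAG was found in 25.3% and 23.8%, against 24.8% and 8.86%. The AP-1 site TGANTCA was found in 14 promoters of chromosome 15 (8.24%) and 11 of chromosome 19 (5.24%), against 4.29% and 7.81%. The TATA box TATAAA was found in 3.53% and 7.62%, against 4.88% and 13.6%, the E-box CACGTG in 9.41% and 9.05%, against 11.7% and 7.15%, and the CArG box in 2 and 5 promoters (1.18% and 2.38%), against 1.38% and 1.63%. None of these differences in share was tested. Median GC content was 62.8% and 61.7%, against 62.3% and 52.7%. On chromosome 15 the regions of the 85 promoters with CCAAT had a median log2 height difference of -0.259, and those without -0.208; on chromosome 19 it was -0.302 and -0.25, and on the other autosomes -0.101 and -0.059. With the E-box the median on chromosome 15 was -0.443 (16 promoters) and without it -0.218; on chromosome 19 it was -0.344 and -0.291, and on the other autosomes -0.058 and -0.081. The AP-1 site gave -0.271 and -0.314 (14 and 11 promoters of chromosomes 15 and 19) against -0.222 and -0.300 without it. On the other autosomes the order was the reverse, at -0.052 against -0.080. The ETS core gave -0.208 and -0.286 against -0.229 and -0.300, and on the other autosomes -0.049 against -0.090. The TATA box gave -0.165 and -0.254 (6 and 16 promoters) against -0.224 and -0.301. On the other autosomes that order was also the reverse, at -0.109 against -0.077. The GC box gave -0.229 and -0.272 against -0.209 and -0.331, and on the other autosomes -0.090 against -0.050. Promoters can share 1 region, and none of these height differences was tested. A match is a description of the letters and not a bound site.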

How the data were processed

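ATAC-seq libraries of 10T1/2 cells, 2 wild-type and 2 Ranbp2-knockout, were analysed from the peak lists the authors deposited, 1 per library. Per the submitters' processing notes the authors used mm10, with MACS2, Bowtie2, cutadapt, DESeq2, deepTools and DiffBind 2.2.12 among the tools. By the peak names in the deposited files, peaks were called in each library on filtered, short reads or fragments. The authors' score is a whole-number form of the -log10 q of the peak. The deposited fold is a ratio of the summit over the local background, and the deposited -log10 p-value and -log10 q-value are the caller's. The 2 differential lists the authors deposited give positions only. No file held read counts, so depth is unknown and no count test was made.

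Heights and local backgrounds were solved here from the fold ((height + 1) over (background + 1)) and the Poisson p-value. This step was chosen after seeing the data. The solution was run on simulated data made with the same formulas, which tests the arithmetic and cannot show that the caller used those formulas. The lowest backgrounds were 1.97, 0.845, 1.37 and 2.08. Relative values were formed within a library against regions of the other 17 autosomes. Ranks were percentiles of the -log10 q among the 10647 autosomal regions with a peak in all 4 lists. Gene ends and names came from RefSeq on GRCm38.p6 (21887 protein-coding genes). A region took the name of the gene whose end lay within 1 kb, else of the gene that holds it, else of the nearest within 100 kb. Members were named from the deposited differential lists, from the widest gaps between genotypes in rank (8 lower and 4 higher per chromosome), from the strongest 1-genotype members (5 and 3) and from the gene lists (6 per list, and all wild-type-only ones); 2 members so chosen are not reported here. Python 3.11.15, pandas 2.3.3 and scipy 1.17.1 were used. The members, gene lists and tests were chosen with earlier results of these data known. Titles number the replicates 1 and 2 and library names 1 and 3 (wild type) or 2 and 3 (knockout), and nothing in the labels says that a number marks a shared batch, so the fit without a block was used. Intervals of counting error were not formed, since reads are not in the files.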

Additional observations from a re-analysis of the deposited data

How the results depend on the processing

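No setting reversed a lower knockout level in rank, height, background, presence or list share on either chromosome. The difference in rank was -3.70 and -2.66 (chromosomes 15 and 19) with percentiles among all peaks of a list, -2.20 and -1.09 by fold enrichment, and -7.20 on chromosome 15 with medians. On chromosome 19 it was -5.54 with lists of equal length, -4.31 without regions of the differential lists and -6.01 by summit height. By local background, added after seeing the data, it was -6.67 and -7.48. Leaving out 1 library gave -6.31 to -4.26 and -5.02 to -4.35. Windows lower in all pairs were 3 of 17 and 1 of 13 with percentiles among all peaks, 6 of 17 on chromosome 15 by fold, 7 of 11 and 2 of 7 with 10 Mb windows, and 12 of 13 on chromosome 19 by local background. Members lower in all pairs ranged from 286 to 369 and from 187 to 269 without 1 library, where fewer values must be ordered and more regions are shared.

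The presence difference was -6.62 and -6.92 with lists of equal length and -6.50 on chromosome 19 with regions in at least 1 list. It ranged from -5.10 to -1.03 and from -5.71 to -2.62 without 1 library, where the set of members changes as well. The list share difference was -0.510 and -0.407 at equal length and -0.468 and -0.372 without differential-list regions, and -0.331 on chromosome 19 with -log10 q of at least 5. The log2 height on chromosome 19 was -0.178 at equal length, -0.181 without differential-list regions and -0.222 by medians. Without 1 library height ranged from -0.217 to -0.160 and from -0.214 to -0.174, and background from -0.206 to -0.169 and from -0.234 to -0.200. Gene end minus elsewhere on chromosome 19 turned positive, at 0.69 with percentiles among all peaks and 0.42 at 500 bp, and ranged from -0.66 to 1.36 without 1 library. The cause of these moves was not tested.

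With the replicate block, pairing libraries by title number, the differences were the same, at -5.57 and -5.01 in rank, since with 2 pairs a block leaves the mean unchanged and its exact p cannot go below 0.5. Depth limits single regions most: a missing peak may be one below threshold, and 1 region's height is uncertain by more than the chromosome difference.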
